A study of Mus musculus with 32 samples.

Results

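The matricellular and proteoglycan genes described here are 10 genes of the matrix around cells, namely Fn1, Spp1, Postn, Tnc, Thbs1, Thbs2, Sparc, Lum, Dcn and Bgn, chosen by name and not by their values. They are 10 of the 34821 gene names on the array and were measured by 12 of its 55681 probes, 2 for Tnc, 2 for Sparc and 1 for each of the others. Their levels were followed in 32 samples on 16 Agilent arrays, in 8 groups of 4. Balb/c male mice of 6 to 8 weeks received 2000000 C26 cells, a colon carcinoma line of the same mouse strain, into the spleen, or buffer alone as control. The time to the isolation of the liver cells was 14 days in the study's methods and 15 days in its overview legend. From these livers came control and tumor microenvironment (TME) samples of 3 fractions: endothelial cells of the sinusoids (control EC, TME ET), Ito cells, which are the stellate cells of the liver (IC, IT), and Kupffer cells, its resident macrophages (KC, KT). The fractions were separated by density gradients and adherence, kept in medium with 10% serum and used within 24 h, so all 6 liver groups had been in culture. The other 2 groups were cells of the tumor liver metastasis (TM) and of the primary colorectal tumor (TP), and how these were isolated was not given in the sources used here. The study's legends call the samples of a group biological replicates. Whether each came from its own mouse is not given in the sources used here, and p-values measure the spread between these samples.

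Matricellular proteins are secreted into the matrix but act mostly as signals to cells and not as its scaffold. Fn1 encodes fibronectin, which polymerises into fibrils that cells grip through integrins, and Spp1 encodes osteopontin, a phosphoprotein bound by integrins and by the receptor CD44. Postn encodes periostin and Tnc encodes tenascin C, proteins of wounds and scars that are typical products of activated fibroblasts. Thbs1 and Thbs2 encode thrombospondins, which bind CD36 and CD47 and restrain the growth of vessels, and thrombospondin 1 also activates latent TGF-beta. Sparc encodes osteonectin, a collagen-binding glycoprotein. Lum (lumican), Dcn (decorin) and Bgn (biglycan) are small leucine-rich proteoglycans that bind collagen fibrils and govern their assembly. In the liver, stellate cells are the best known source of this matrix, and hepatocytes secrete the fibronectin of the plasma.

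The probes are 60 bases long, and their sequences are part of the array files. Shown here are those for Thbs2 and Spp1, which lay far higher in the tumors than in the liver samples, both probes for Tnc, since their differences were unequal in size, and the probe for Bgn. Each of the 5 holds at least 1 reading frame with no stop codon. They are given 5′ to 3′ in the direction of the transcript, all in lower case, with the places that the files state for the mm9 build.
Spp1, chr5:104868502-104868561: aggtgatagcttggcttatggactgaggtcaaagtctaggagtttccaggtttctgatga
Thbs2, chr17:14804526-14805789: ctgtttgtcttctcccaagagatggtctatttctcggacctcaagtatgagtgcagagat
Tnc, the probe tested, chr4:63674248-63675011: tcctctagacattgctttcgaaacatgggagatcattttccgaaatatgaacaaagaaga
Tnc, the other probe, chr4:63643728-63643787: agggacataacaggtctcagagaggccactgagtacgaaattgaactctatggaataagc
Bgn, chrX:70738554-70738613: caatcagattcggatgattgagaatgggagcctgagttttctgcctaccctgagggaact
The stated places of the Thbs2 probe and of the tested Tnc probe are longer than the probe itself, so both lie across a splice junction and read 2 exons. The remaining probes lie at chr1:71632116-71632175 (Fn1), chr3:54194840-54194899 (Postn), chr2:117952585-117952644 (Thbs1), chr11:55208003-55208061 (Sparc, tested), chr11:55208939-55208998 (Sparc, other), chr10:97035210-97035269 (Lum) and chr10:96980233-96980292 (Dcn). Each gene was read by single spots, and levels of different genes are not compared with each other, because probes differ in brightness. For Tnc and Sparc the probe with the higher variance over all samples was tested, the rule by which the study chose probes for its comparison of genes with proteins only, and values of the other probe are given beside it.

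Levels are the log2 of the authors' quantile-normalized intensity, so a difference of 1 is a doubling. Between 38.4 and 57.1% of the spots of a sample were well above background. On every array the control or TM sample carried the dye Cy3 and the TME or TP sample Cy5, so the dye cannot be told apart from the difference between TME and control, nor from that between TP and TM. Slide 1 held the arrays of endothelial and Ito cells, and slide 2 those of Kupffer cells and tumors. Several samples stood apart. On the array that Ito samples numbered 4 shared, the difference between TME and control ran against the mean of the other 3 Ito arrays (Pearson r = -0.66 over the 17086 probes well above background in every sample, -0.45 over all probes), and the same held for the Kupffer array numbered 4 (r = -0.60 and -0.28). The dyes in the labels give these arrays the same direction as the others, and that direction was kept. Whether the samples numbered 4 were exchanged between the dyes of these arrays was not tested, so the Ito and Kupffer means that include them are open to it. IT replicate 2 had the lowest correlation with its own group (r = 0.959). In KC replicate 3, the mean level of 10 hepatocyte markers was 8.80, against 9.75 to 10.49 in the other KC samples. The results were therefore also computed without these 6 samples, a choice made after the data were seen.

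The labels were set against lists of marker genes. The mean of the 10 sinusoidal endothelial markers was highest in EC, at 12.39 to 12.68, and that of the 10 macrophage markers lay at 12.35 to 14.29 in KC and 13.45 to 14.12 in KT. The 10 stellate markers did not set the Ito fractions apart: their mean was 7.93 to 8.01 in IC and 8.51 to 8.90 in EC. Of these 10 markers 9 were well above background in all 4 IC samples and 7 in all 4 IT samples. Lrat, which stores vitamin A in stellate cells, was so in 2 of 4 IC samples and in none of the IT samples, and Clec4f, a Kupffer cell lectin, lay at 14.79 ± 0.73 (SD, n = 4) in IC. The 10 hepatocyte markers were highest in the Ito fractions, at 11.66 to 12.66 in IC and 11.15 to 12.60 in IT, against 9.52 to 9.83 in EC. The fractions are therefore called by their labels, and in such bulk samples fewer cells of a type and less RNA per cell cannot be told apart. In TM and TP, no endothelial and no hepatocyte marker was well above background in all 4 samples of either group, and neither were Epcam and Cdh1, markers of epithelial cells, in any of the 8 samples, while Krt18 was in all 8.

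**Figure D1:**
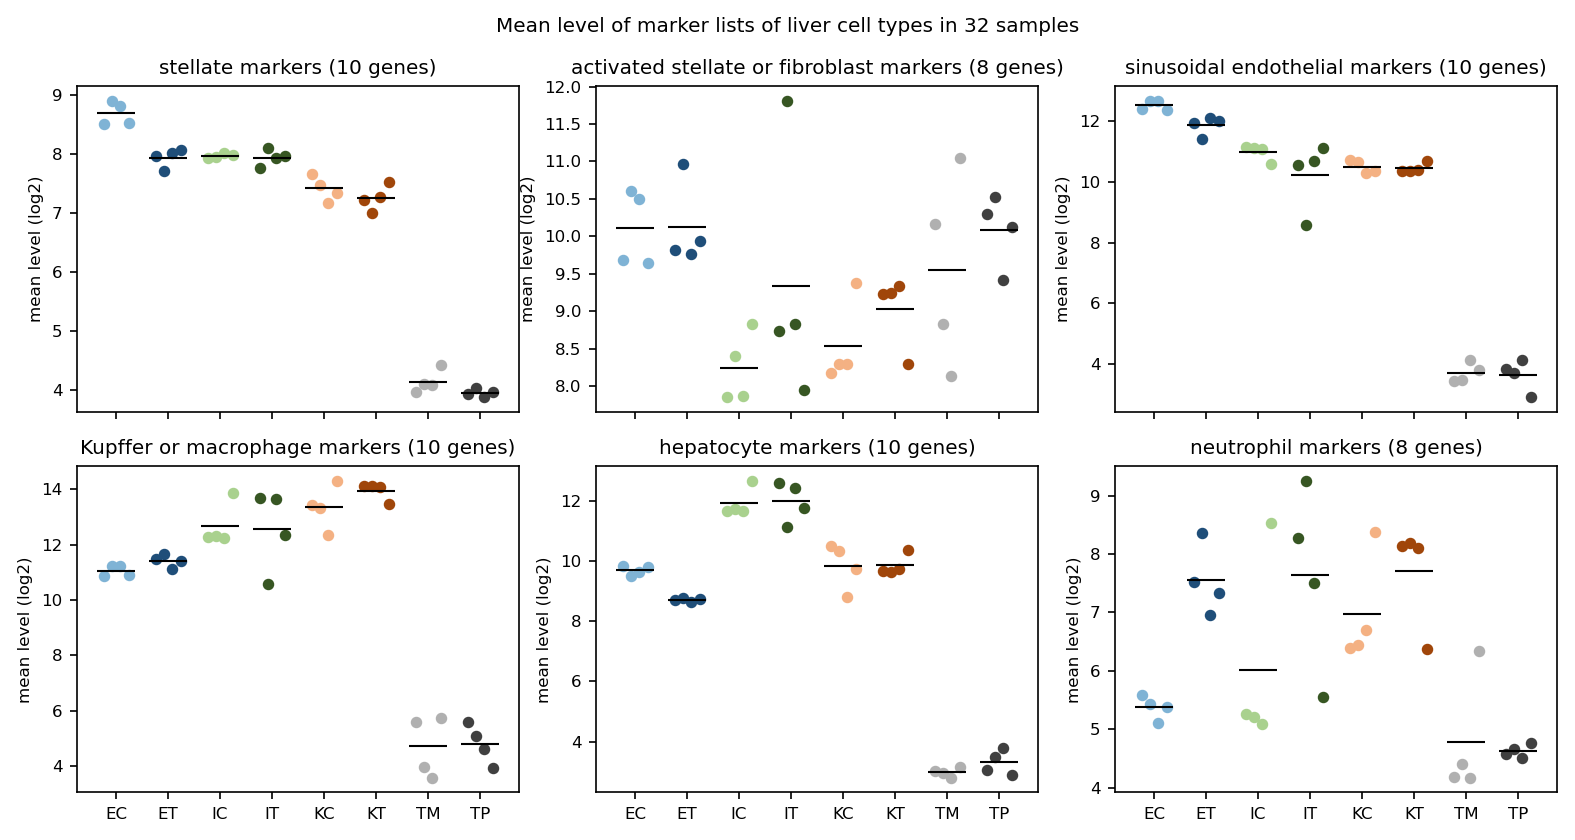
Mean log2 level of 6 lists of marker genes (vertical axis) in each of the 32 samples, by group (horizontal axis); dots are samples in the order of their replicate number and lines are group means. The hepatocyte list is highest in the Ito samples, the stellate list is highest in EC, and the neutrophil list is higher in ET, at 6.96 to 8.37, than in EC, at 5.11 to 5.59.

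Across the 24 liver samples all 10 genes were measurable: 9 were well above background in every sample, and Thbs2 in all but KC replicate 3. Fn1, Spp1 and Thbs2 were far higher in the tumor samples than in any liver sample. Postn was not well above background in any tumor sample, Tnc and Bgn were lower in every tumor sample than in every liver sample, and Thbs1 was so in every tumor sample but TP replicate 4. Among the liver groups, Postn, Tnc, Lum, Dcn and Bgn were highest in EC, Thbs1, Thbs2 and Sparc in ET, and Fn1 and Spp1 in IT.

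**Figure D2:**
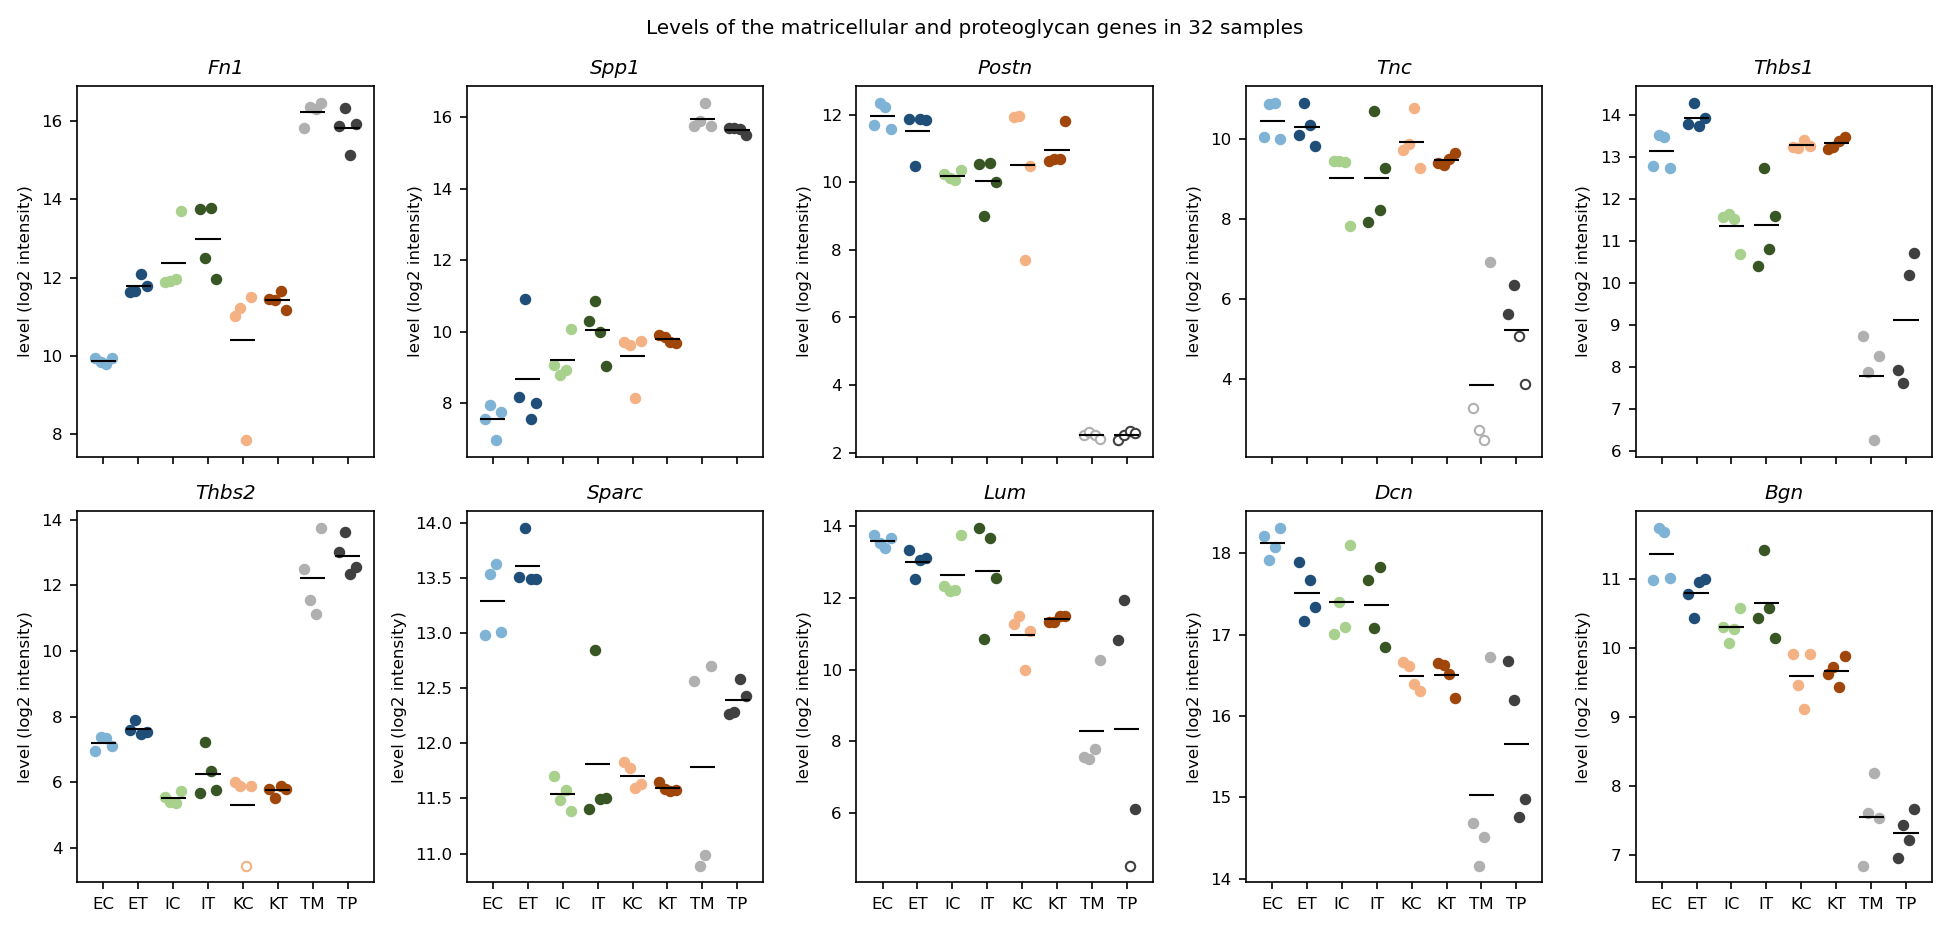
Level (log2 intensity, vertical axis) of the 10 genes in each sample, by group (horizontal axis); filled dots are samples well above background, open dots are not, dots stand in the order of the replicate number, and lines are group means. Fn1, Spp1 and Thbs2 sit higher in TM and TP than in all liver samples, Postn sits at 2.37 to 2.64 in the tumors, and single samples such as KC replicate 3 stand far from their group.

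Fibronectin showed the largest mean difference of the 10 genes between TME and control, in endothelial cells. The level of Fn1 was 9.93, 9.84, 9.78 and 9.94 in EC and 11.63, 11.66, 12.08 and 11.78 in ET, in the order of the replicate numbers. The groups did not overlap, and all 4 arrays had the higher level in ET, by 1.70, 1.83, 2.31 and 1.84. The mean difference was 1.92 on the log2 scale, 3.77-fold (95% interval 0.80 to 3.03). It did not pass the test when all 8 groups shared 1 estimate of the spread (limma, adjusted p = 0.0970). None of the 10 genes was called in this comparison, in which 1.14% of all probes were, and 3 of the 10, Fn1, Spp1 and Bgn, had an unadjusted p under 0.05, as did 7.71% of all probes. KC replicate 3 was at 7.83, beside 11.01, 11.23 and 11.51 in the other KC samples, and entered that estimate: the SE of the difference was 0.54 with it and 0.36 without it. Without that sample the same difference of Fn1 passed (limma, adjusted p = 0.00343), as it did without the Ito and Kupffer samples numbered 4 (0.0349), without all 6 samples (7.39e-07), with only ET and EC in the fit (0.000232) and by the methods' t-test (0.00147), which called Fn1 alone of the 10 and 4.01% of all probes. With the shared array as a block it did not (0.270). Nor was Fn1 called under any other normalization, with the filter on dim probes, or with any single replicate number left out. In all, Fn1 was called in 5 of the 18 other settings, those named above, and its adjusted p ran up to 0.606 (limma). The methods' t-test was taken here at an adjusted p under 0.05. At 0.00147 by that test and 3.77-fold, Fn1 did not reach the study's limits of 0.001 and 4-fold. The summed hepatocyte markers moved the other way in these samples, at 9.52 to 9.83 in EC and 8.63 to 8.78 in ET, and 3 of the 10 were called lower, while the neutrophil markers were higher in ET, with none of the 8 called. The part of neutrophils or of other cells in the Fn1 difference was not tested.

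In Ito cells, the TME difference of Fn1 depended on the array. The level was 11.90, 11.90, 11.97 and 13.71 in IC and 13.75, 12.49, 13.77 and 11.97 in IT. IC replicate 4 thus lay among the IT values and IT replicate 4 among the IC values. The arrays differed by 1.85, 0.59, 1.80 and -1.74, and the mean difference was 0.63 (limma, adjusted p = 0.757). Without the 6 samples that stood apart it was 1.84 and passed (limma, adjusted p = 2.36e-05). The macrophage markers followed the same samples, at 12.23 to 12.30 in IC replicates 1 to 3, 13.85 in IC replicate 4, 13.70 and 13.63 in IT replicates 1 and 3, and 12.34 in IT replicate 4. So did the hepatocyte markers, at 11.66 to 11.72, 12.66, 12.60 and 12.43, and 11.76 in the same order. IT replicate 2 did not follow: its Fn1 lay above IC replicates 1 to 3. Its macrophage and hepatocyte markers, at 10.57 and 11.15, lay below those of IC replicates 1 to 3. In IC replicate 4 the 8 neutrophil markers lay at 8.53, beside 5.08 to 5.26 in the other IC samples, and the 4 erythroid markers at 12.03, beside 9.93 to 10.09. The part of these cells in the result was not tested. None of the 10 genes was called in Ito cells, where 0.289% of all probes were (limma). The methods' t-test called 0 of the 10 and 2.22% of all probes, and 0 of the 10 had an unadjusted p under 0.05, against 9.88%.

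In Kupffer cells, Fn1 stood at 11.45, 11.42, 11.65 and 11.18 in KT. The difference from KC was 0.44, 0.20, 3.82 and -0.33 on the 4 arrays, so the mean of 1.03 (limma, adjusted p = 0.718) rested on KC replicate 3, without which it was 0.18. None of the 10 genes was called here either, against 0.436% of all probes (limma). The methods' t-test called 0 of the 10 and 0.088% of all probes, and 0 of the 10 had an unadjusted p under 0.05, against 7.37%. Whether the TME difference of Fn1 differed between cell types was tested in the same fit. The Ito minus the endothelial value was -1.29 over all samples and was not called. It ran from -1.77 to -0.08 over the 17 other settings and was called in 0 of them. The Kupffer minus the endothelial value was -0.89 over all samples (limma, adjusted p = 1), and -1.53 without the 6 samples (SE 0.29, adjusted p = 0.00956). The Kupffer minus the Ito value was 0.41 over all samples (adjusted p = 1), and of the other sign without the 6 samples, at -1.45 (limma, adjusted p = 0.0387). Over all samples, none of the 10 genes passed any of these 3 tests, in which 0.111, 0.0808 and 0.00359% of the probes were called.

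**Figure D3:**
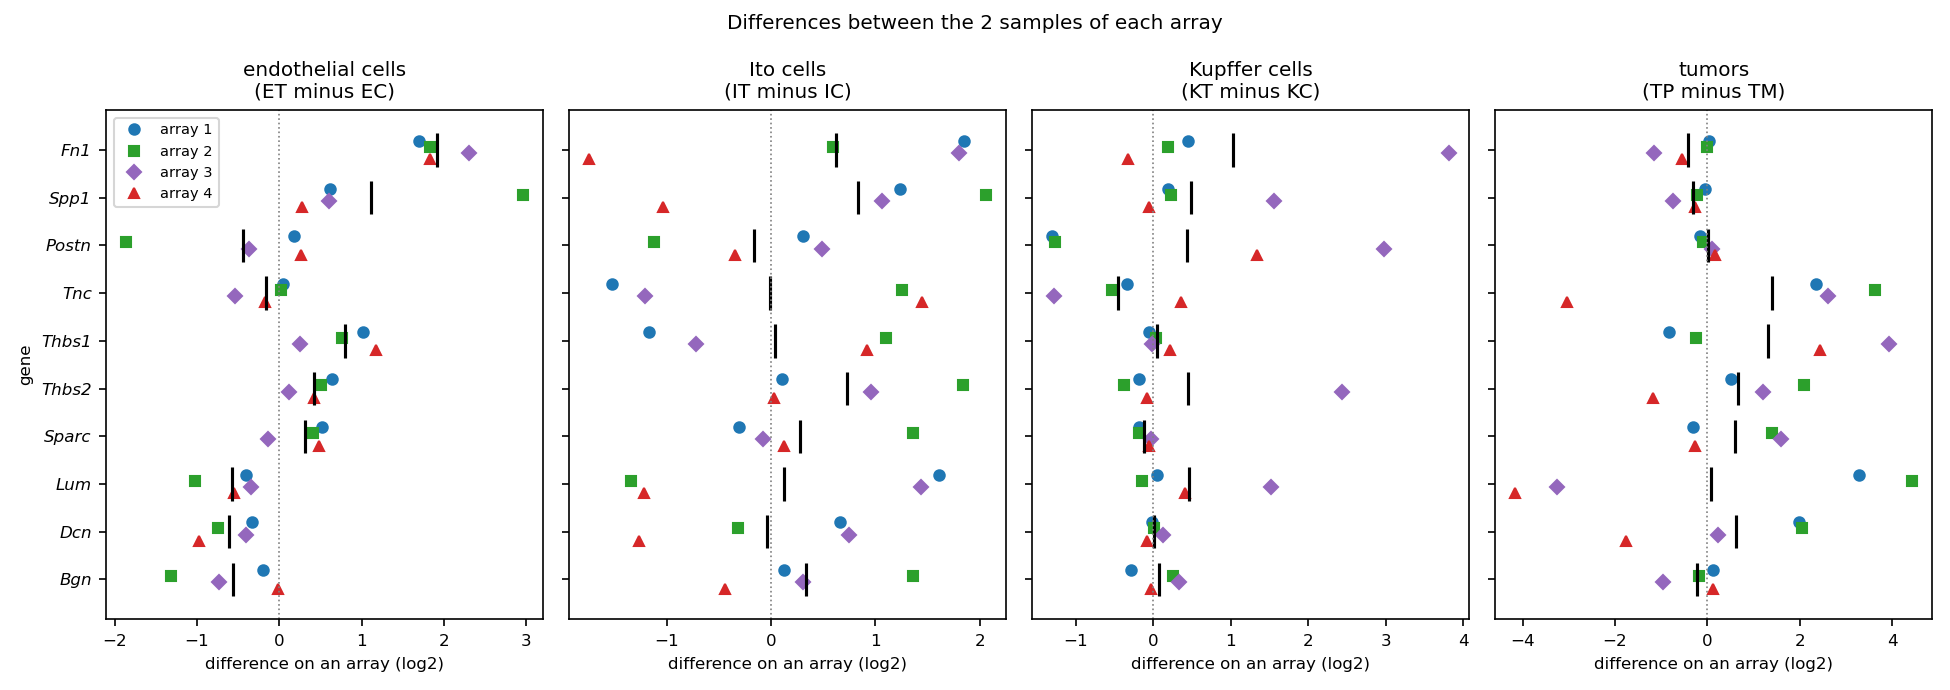
Difference between the 2 samples of each array (log2, horizontal axis) for the 10 genes (vertical axis), in 4 panels for endothelial, Ito and Kupffer cells (TME minus control) and tumors (TP minus TM); symbols are arrays and black bars the mean of the 4. The 4 endothelial arrays of Fn1 lie together at 1.70 to 2.31, whereas the Ito and Kupffer arrays spread over 3.59 and 4.15.

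Osteopontin had a wider spread. Spp1 was 7.56, 7.95, 6.97 and 7.75 in EC and 8.18, 10.91, 7.58 and 8.02 in ET, higher in ET on all 4 arrays but with overlap between the groups. Its mean difference of 1.12 was carried by ET replicate 2 (limma, adjusted p = 0.526). The same sample had the lowest Postn of its group, at 10.49 beside 11.84 to 11.88, and the highest cycling and erythroid markers of the 4 ET samples. In IT, Spp1 was 10.31, 10.85, 10.004 and 9.05, against 9.07, 8.79, 8.94 and 10.09 in IC, again with the samples numbered 4 running against the others. In Kupffer cells the groups overlapped at 9.63 to 9.74 in 3 of the KC samples and 9.69 to 9.92 in KT.

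The mean differences of the remaining genes between ET and EC were all under 1 on the log2 scale. Postn differed by 0.18, -1.86, -0.36 and 0.27 on the 4 arrays, the second of them with ET replicate 2, and Tnc by -0.16 on average. Groups that did not overlap were found for 5 of the 10 genes, against 13% of all probes: Fn1, Thbs1 and Thbs2 were higher in all ET samples, and Lum and Dcn lower. In detail, Thbs1 was 12.78, 13.53, 13.48 and 12.75 in EC and 13.80, 14.29, 13.73 and 13.92 in ET, a difference of 0.80 (limma, adjusted p = 0.981). Dcn was 18.22, 17.91, 18.08 and 18.31 in EC and 17.90, 17.17, 17.68 and 17.34 in ET, a mean difference of -0.61 (limma, adjusted p = 0.967). For Lum it was -0.58 and for Thbs2 0.42 (adjusted p = 1 for both), and for Bgn -0.56, with overlap (adjusted p = 0.618). All 3 small proteoglycans were thus lower in ET on each of the 4 arrays, by amounts that did not pass the test. The mean of the stellate markers was lower in the same samples, at 7.71 to 8.07 in ET and 8.51 to 8.90 in EC, and that of the endothelial markers at 11.43 to 12.10 and 12.39 to 12.68, with none of either list called, and their part was not tested. The median difference over the 10 genes was 0.08, beside 0.01 over all probes.

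Periostin in Kupffer cells changed sign with the samples taken in. Postn was 11.93, 11.96, 7.71 and 10.47 in KC and 10.63, 10.698, 10.69 and 11.81 in KT. The arrays differed by -1.30, -1.26, 2.98 and 1.34, so KT was lower on 2 of them and higher on the other two. The mean difference was 0.44 over all samples (limma, adjusted p = 0.960). Without the 6 samples, which leaves 2 KC and 3 KT samples, Postn fell by 1.28 (adjusted p = 0.0141). In Kupffer cells Dcn, Thbs1 and Bgn had mean differences of 0.01, 0.04 and 0.07, and Sparc 1 of -0.11 (95% interval -0.76 to 0.53). Thbs2, Lum, Tnc and Spp1 were uneven, with arrays that spread over 2.80, 1.66, 1.64 and 1.61, and in each the array of KC replicate 3 lay farthest out.

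The cell types themselves differed more than TME from control. Between IC and EC, which shared dye and slide, 7 of the 10 genes were called, against 9.89% of all probes, 2 of them higher in IC (4.17% of all probes) and 5 lower (5.72%). The filter on dim probes kept the 28997 probes well above background in all 4 samples of some group. With it, 7 of the 10 genes and 5827 probes were called. Leaving out the samples of 1 replicate number in every group gave 3 or 4 calls, and leaving out the Ito and Kupffer samples numbered 4 gave 4. Higher in IC were Fn1, by 2.498 or 5.65-fold (limma, adjusted p = 0.00272), and Spp1, by 1.67 (adjusted p = 0.0281). The lower ones were Thbs1 (-1.78), Postn (-1.77), Sparc (-1.75), Thbs2 (-1.68) and Bgn (-1.05). The strongest of these calls was Sparc, at 12.99, 13.54, 13.63 and 13.01 in EC and 11.70, 11.49, 11.57 and 11.38 in IC (limma, adjusted p = 0.000419). The other Sparc probe differed by -0.97 and just missed the threshold (adjusted p = 0.0532). Bgn was 10.98, 11.73, 11.68 and 11.01 in EC and 10.30, 10.06, 10.27 and 10.58 in IC, without overlap. Groups did not overlap for 8 of the 10 genes, against 21.7% of all probes, and Tnc was among these without being called (-1.43, adjusted p = 0.252). Beside these genes, hepatocyte and macrophage markers were higher in IC and endothelial and stellate markers higher in EC, and their part was not tested.

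In the TME samples, the same pair of fractions gave 2 calls, against 8.26% of all probes, both lower in IT, as were 4.78% of the probes. Thbs1 was 10.41, 12.74, 10.80 and 11.60 in IT, below all ET samples, and fell by 2.54 (limma, adjusted p = 0.00332). Sparc was 11.40, 12.85, 11.50 and 11.50 in IT and 13.51, 13.95, 13.49 and 13.49 in ET, and fell by 1.80 (adjusted p = 0.000401), while its other probe fell by 1.30 (adjusted p = 0.00996). IT replicate 2 was the highest IT sample for both genes. Its activated stellate or fibroblast markers lay at 11.81, beside 7.95 to 8.83 in the other IT samples. Its cholangiocyte or epithelial markers lay at 8.12, beside 5.70 to 6.12, and its endothelial markers at 8.58, beside 10.55 to 11.13. Beside the calls of Thbs1 and Sparc, all 10 hepatocyte markers (median difference 3.50) and 3 of 4 erythroid markers were called higher in IT and 4 of 10 endothelial markers lower. The part of all these cells was not tested. Without the 6 samples 5 genes were called, with Fn1 higher in IT by 1.97 and Postn and Thbs2 lower (-0.97 and -1.62), in addition to Thbs1 and Sparc. The 2 comparisons of Ito with endothelial cells share no sample, but their samples lie in pairs on the same arrays and in the same fit. They are therefore not independent.

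**Figure D4:**
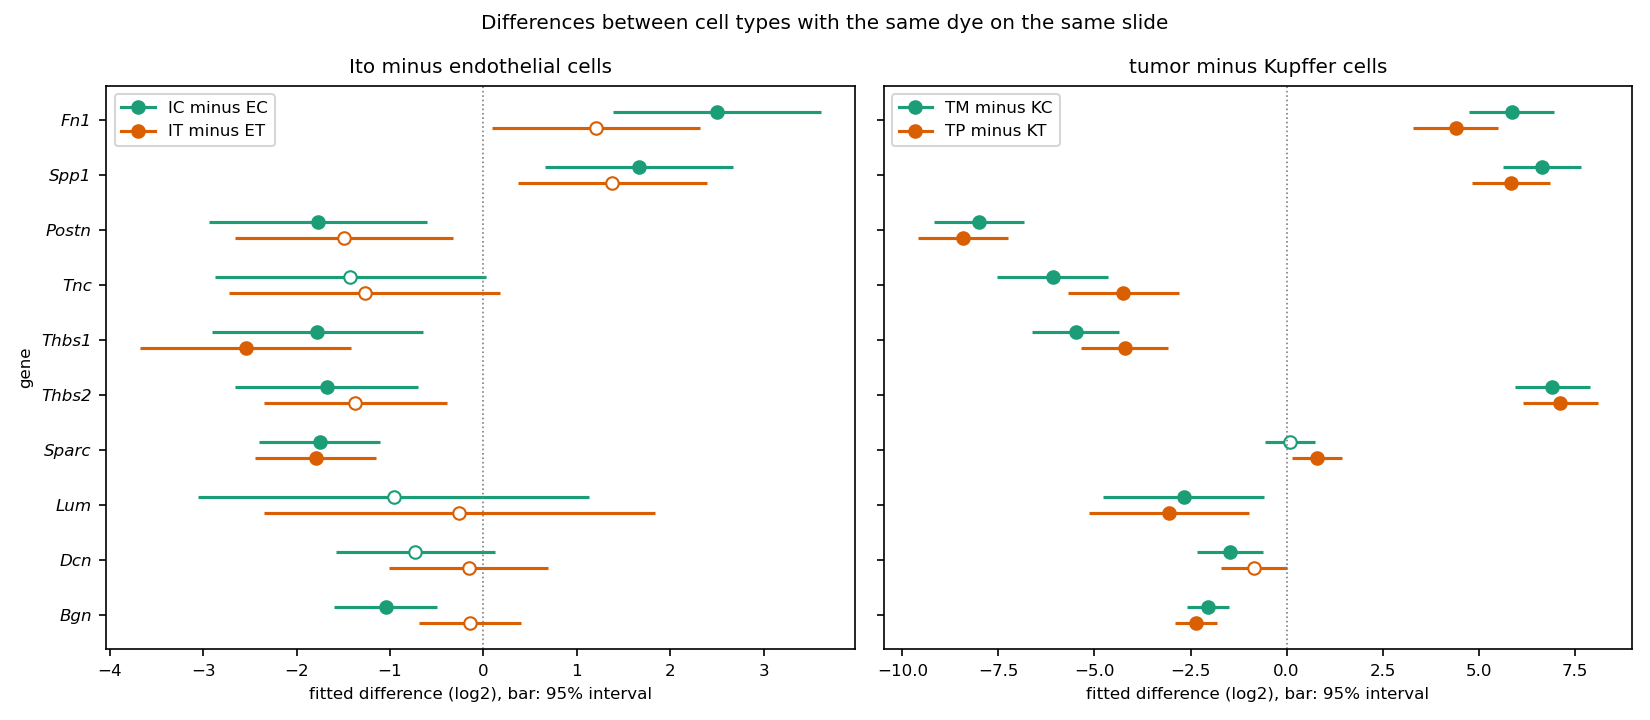
Fitted difference (log2, horizontal axis) of the 10 genes (vertical axis) between Ito and endothelial cells (left) and between tumor and Kupffer cells (right), control or Cy3 samples in green and TME or Cy5 samples in orange; bars are 95% intervals and filled dots were called at an adjusted p under 0.05. Fn1 and Spp1 lie to the right in both panels, whereas Thbs2 is lower in Ito than in endothelial cells and higher by about 7 in the tumors.

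Kupffer cells lay on another slide than the endothelial and Ito cells, so slide and cell type cannot be told apart. Against EC, 5 of the 10 genes were called in KC, where 21% of all probes were, 8.95% higher and 12.1% lower: Spp1 was higher by 1.76, and Thbs2 (-1.88), Bgn (-1.76), Dcn (-1.63) and Sparc (-1.58) were lower. With the filter on dim probes, 7 of the 10 genes and 12117 of 28997 probes were called. The other Sparc probe gave -0.50 and was not called (adjusted p = 0.328). The value of Thbs2 was -1.27 without KC replicate 3 (adjusted p = 0.0277), and it was not called with only the compared groups in the fit (0.0529) or by the methods' t-test (0.0960). Of the 10 markers in each list, 6 endothelial and 6 stellate ones were called lower in KC and 6 macrophage ones higher. Against IC, 2 were called, where 14.8% of all probes were: Fn1 was lower (-1.98, limma, adjusted p = 0.0125) and Thbs1 was higher by 1.92 (adjusted p = 0.0167). The Fn1 call against IC was lost without KC replicate 3 (difference -1.12, adjusted p = 0.0554), and the Thbs1 call without the Ito and Kupffer samples numbered 4 (1.70, adjusted p = 0.104). All 10 hepatocyte markers were called lower in KC than in IC (median difference -2.22), and the part of these cells in both comparisons was not tested. Thbs1 lay at 13.21 to 13.40 in KC and 10.68 to 11.65 in IC, without overlap.

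The tumor samples carried the widest differences. They were set against the Kupffer samples of the same dye and slide, TM against KC and TP against KT. Of the 10 genes 9 were called in each comparison, against 39.4% and 43.6% of all probes. Many of all probes are dim, whereas the 10 genes were measurable in the liver samples. With the filter on dim probes, 9 of the 10 were again called in each, beside 19295 and 20244 of 28997 probes. With the study's stricter limits, 0.001 for the adjusted p and 4-fold for the size, 7 of the 10 passed in each, against 14.3 and 15.9% of all probes. Normal colon or normal tissue of the metastasis site was not analysed here, and Kupffer cells were taken because they share dye and slide with the tumor samples.

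Fibronectin, osteopontin and thrombospondin 2 were high in the tumors. Fn1 was 15.84, 16.36, 16.31 and 16.47 in TM and 15.87, 16.35, 15.15 and 15.92 in TP, above the highest liver sample at 13.77. It was 57.8-fold higher in TM than in KC (5.85, limma, adjusted p = 7.04e-10) and 21.1-fold higher in TP than in KT (4.40). The first value rested in part on KC replicate 3, without which it was 32-fold. Spp1 was 15.76, 15.90, 16.40 and 15.76 in TM and 15.71, 15.69, 15.66 and 15.50 in TP, with no liver sample above 10.91. The rise was 6.64 against KC and 5.84 against KT. Thbs2 was 12.51, 11.55, 11.14 and 13.75 in TM and 13.02, 13.64, 12.34 and 12.56 in TP, whereas the highest liver sample was at 7.89. Its difference was 6.92 against KC and 7.13 against KT (limma, adjusted p = 2.23e-12 and 1.06e-12). Without KC replicate 3, in which Thbs2 was not well above background, the first of these was 6.30, and over all settings it went down to 5.40. These 3 genes thus stood apart from every liver sample, and the 18 other settings left each of their 6 calls in place.

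Periostin, tenascin C and thrombospondin 1 were low in the tumors. Postn was 2.53, 2.62, 2.53 and 2.40 in TM and 2.37, 2.53, 2.64 and 2.58 in TP, not well above background in any of these samples, so only a bound can be given. It was at least 17.9-fold lower in TM than in KC and at least 18.01-fold lower in TP than in KT (limma, adjusted p = 4.35e-12 and 1.31e-12), where the bound sets the Kupffer mean against the dimmest signal counted as measured on each array. Tnc was 3.26, 2.70, 2.45 and 6.91 in TM, of which only the last was well above background, and 5.61, 6.34, 5.06 and 3.87 in TP, of which the first 2 were. Its difference was -6.09 against KC and -4.25 against KT (limma, adjusted p = 4.29e-08 and 1.22e-05), values that include samples not above background. They were smaller with loess and Aquantile normalization, at -3.27 and -2.77. The other Tnc probe gave -4.29 against KC, with 1 TM sample well above background, and was at least 2.77-fold lower in TP than in KT, with no TP sample well above background. Thbs1 was well above background throughout, at 8.75, 7.87, 6.26 and 8.27 in TM and 7.92, 7.62, 10.18 and 10.72 in TP, with differences of -5.49 and -4.21. The 2 thrombospondin genes therefore went in opposite directions between tumor and Kupffer samples, Thbs1 lower and Thbs2 higher in both comparisons.

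The 3 small proteoglycans were lower in the tumors to different extents. Bgn was 6.84, 7.61, 8.18 and 7.53 in TM and 6.96, 7.42, 7.21 and 7.66 in TP, below every liver sample, with differences of -2.06 and -2.35 (limma, adjusted p = 2.82e-07 and 2.53e-08). Lum differed by -2.68 and -3.06 (adjusted p = 0.0372 and 0.0155) but its tumor samples were uneven: 7.56, 7.50, 7.78 and 10.26 in TM, and 10.84, 11.93, 4.53 and 6.11 in TP, the third of these not well above background. TP replicate 2 thus exceeded every Kupffer sample, the highest of which was 11.49. Each Lum call held in 13 of the 18 other settings. Against KT the difference ranged from -4.28 to -1.76, the latter without the samples numbered 3, where it was not called, and it did not pass with only the compared groups (0.180) or by the methods' t-test (0.233). Dcn was 14.69, 14.16, 14.52 and 16.73 in TM and 16.68, 16.20, 14.76 and 14.98 in TP. It fell by 1.47 against KC (adjusted p = 0.00487) and differed by -0.85 against KT, which did not pass (adjusted p = 0.102). TM and KC overlapped, with TM replicate 4 above every KC sample, the highest of which was 16.67. The Dcn call against KC held in 12 of the 18 other settings. Sparc depended on the probe: the tested probe gave 0.08 against KC, not called, and 0.80 against KT, called (adjusted p = 0.0418), whereas the other gave -0.85 (adjusted p = 0.0364) and -0.18 (adjusted p = 0.728).

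TP and TM shared arrays, with the dye and the group not to be told apart, and none of the 10 genes was called between them, against 3.01% of all probes (limma). The methods' t-test called 0 of the 10 and 0.361% of all probes. Thbs1 alone had an unadjusted p under 0.05, as did 16.4% of all probes. It was higher in TP on 2 of 4 arrays only, with a mean difference of 1.32 (limma, adjusted p = 0.213). The groups did not overlap for Spp1, which was lower in all TP samples, by 0.32 on average (adjusted p = 0.867), against 10.6% of all probes without overlap. Tnc and Dcn were higher in TP on 3 arrays and lower on array 4, and Lum differed by 3.28, 4.43, -3.25 and -4.16 on the 4 arrays. TM replicate 4 was the sample of its group with the highest Tnc, Thbs2, Lum, Dcn and, on the tested probe, Sparc. On the other Sparc probe it was at 16.50, below TM replicate 1 at 16.75. TM replicate 4 also had the highest mean of the 8 fibroblast markers, 11.05 beside 8.14 to 10.17, and of the neutrophil markers, 6.34 beside 4.17 to 4.40. Without the replicates numbered 4, Tnc (2.87, limma, adjusted p = 0.00593) and Dcn (1.43, adjusted p = 0.0308) were higher in TP. For Tnc, none of the TM samples that this left, nor TP replicate 3, was well above background. The other Tnc probe gave -0.35 over all samples (limma, adjusted p = 0.895). The part of other cells in TM replicate 4 was not tested.

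The rest of the family was followed with 21 other matricellular genes, 24 other proteoglycan genes and 21 receptors. None of these 66 genes was called between TME and control in any of the 3 liver fractions (limma), and 6, 7 and 1 of them had an unadjusted p under 0.05 in endothelial, Ito and Kupffer cells, beside 7.71, 9.88 and 7.37% of all probes. The methods' t-test called 4, 0 and 0 of them, beside 4.01, 2.22 and 0.088% of all probes. Between IC and EC, where 9.89% of all probes were called, 7 of the 21 matricellular genes were called, 5 of them lower in IC. The largest were Ctgf (-4.69) and Wisp1 (-3.24), growth factor-like CCN proteins, the calcium-binding Smoc1 (2.54) and its relative Smoc2 (-1.61). Of the proteoglycans, 6 of 24 were called, 5 of them lower in IC, among them Ogn, osteoglycin (-2.33), Hspg2, perlecan of basement membranes (-1.67), and Prelp (-1.44), while the cell-surface syndecan Sdc1 was higher (1.77). Of the receptors 3 of 21 were called, with the collagen receptor Ddr2 lower (-1.003) and Met and the integrin chain Itgav higher (0.99 and 0.75). Between IT and ET, where 8.26% of all probes were called, the calls were 4, 2 and 0, so that the shares of proteoglycans and receptors were near or below that of all probes, and Ctgf (-4.57), Cyr61 (-2.45), Smoc1 (3.55) and Comp (1.97) were those of the first list.

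In the tumors the family moved in both directions. Between TM and KC, where 39.4% of all probes were called, 16 of 21 matricellular genes were, 8 in each direction. With the filter on dim probes, 19295 of 28997 probes were called there, and 20244 between TP and KT. Mgp, the matrix Gla protein that restrains calcification, was higher by 8.40, Fbln2 (fibulin 2) by 7.61 and Thbs3 by 5.98, and Ctgf was lower (-5.40). Of the proteoglycans 14 of 24 were called, 7 in each direction: Ogn and Omd (osteomodulin), both of the leucine-rich class to which Lum, Dcn and Bgn belong, were higher by 8.78 and 6.70, while Srgn, the proteoglycan of blood cell granules, and Sdc3 were lower (-9.85 and -8.28). Of the receptors 17 of 21 were called, 14 of them lower, led by the integrin chains Itgb3 (-9.95) and Itga9 (-8.38), Tlr2 (-8.36) and Egfr (-7.37). The comparison of TP with KT, with 43.6% of all probes called, gave 16, 11 and 18 calls, and its largest included Ctgf (-8.01), Wisp2 (6.92), Ogn (8.47), Omd (7.30), Srgn (-9.28) and Itgb3 (-7.91). Between TP and TM, the receptor genes Cd44 (-1.70), which binds osteopontin, and Lrp1 (-1.30) were lower in TP, and Tnn (tenascin N) was higher (2.44). These were 3 of the 66 genes, beside 3.01% of all probes, and the methods' t-test called 0 of the 66.

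Within the liver the 10 genes did not vary as a block. Over the 24 liver samples, which share slides and arrays in pairs, the highest correlations among them were those of Dcn with Lum (Pearson r = 0.89), Sparc with Thbs2 (0.86), and Thbs1 with Tnc and Bgn with Dcn (0.79 each). The lowest were those of Fn1 with Tnc (-0.73) and with Thbs1 (-0.60). Searched over all measured genes, the nearest to Fn1 were Itih4 (r = 0.936) and Fgl1 (0.934), both secreted by hepatocytes, and Katnbl1 (0.929). The nearest to Spp1 were 1300002K09Rik (0.906), Trem2, a receptor of macrophages (0.889), and F7, a clotting factor made by hepatocytes (0.882). The nearest to Bgn was Smoc2 (0.960), to Dcn Prrx1 (0.929), to Thbs1 Lmcd1 (0.953), to Tnc Slco4a1 (0.945), to Postn Gpm6b (0.916), to Sparc Entpd4 (0.982), to Thbs2 Uqcr11 (0.942) and to Lum Sumo2 (0.963). The samples that stand apart are among the 24, and no test was made of these values.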

How the data were processed

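The authors extracted RNA, labelled 100 ng per sample with Cy3 or Cy5, hybridized 32 samples to 16 Agilent arrays and read these with Feature Extraction. They deposited spot intensities and a table of linear intensities per probe and sample. The table followed the quantile-normalized processed signal of the scanner files (median absolute difference 0.037 on the log2 scale, with column medians of 4.21 to 4.30). The log2 of the deposited intensity was tested with limma 3.58.1 (lmFit and eBayes, R 4.3.3, with data.table version 1.17.8) in 1 fit of the 8 groups, with Benjamini-Hochberg adjustment over 55681 probes and calls at an adjusted p under 0.05. The study's thresholds, 0.001 and 4-fold, were an alternative for limma only, and the methods' t-test was called at an adjusted p under 0.05. Groups, dyes and numbers came from the labels. Control spots were left out. A probe was well above background where the scanner's flag says so. The bounds on Postn used normexp (offset 50), loess and Aquantile. Numbers pair samples only through a shared array. Only the main limma fit was tested on simulated data, for ET minus EC with independent noise, and the other steps were not. All 10 genes were named, and for each family list up to 4 of the called genes with the largest difference. The genes and lists were chosen with earlier results of these data known. Figures used Python 3.11.15 with pandas 2.3.3 and matplotlib 3.10.9. The number of arrays, 4 a group, limits the precision. The miRNA and protein data were not analysed here.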

Additional observations from a re-analysis of the deposited data

Results flagged for a closer look

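Of the 80 groups of 4 samples, 10 genes in 8 groups, 12 held a sample far from the other 3, where about 5% of groups would by chance. For each, the gap to the nearest of the others took up most of the group's whole range, past Dixon's critical value. IC replicate 4 was such a sample for Fn1 (13.71), Tnc (7.82), Thbs1 (10.68) and Lum (13.76). KC replicate 3 was so for Fn1 (7.83), Spp1 (8.15) and Thbs2 (3.47, not well above background). ET replicate 2 was so for Postn (10.49) and Sparc (13.95), IT replicate 2 for Sparc (12.85), KT replicate 4 for Postn (11.81) and TM replicate 4 for Lum (10.26). In 4 of the 12, the sample belonged to IC replicate 4, and the cause was not tested. No difference of the TME change between cell types passed the test over all samples.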

How the results depend on the processing

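Of the 34 differences called, none changed under the shared array as a replicate block and the filter on dim probes, and 33 or 32 stayed called under the 4 other normalizations. For comparisons between arrays, which all 34 calls are, the block entered as a correlation between the 2 samples of an array, estimated at 0.078. For differences within arrays, each array had its own fitted level. Samples of the same number correlated in their deviations by -0.29 to 0.52, and 28 of 32 samples correlated best with their own number. Of the 18 calls of the tumors against Kupffer cells, those of Fn1, Spp1, Postn, Tnc, Thbs1, Thbs2 and Bgn held under all 18 other settings in both comparisons. The others held less well: each Lum call in 13, Dcn in TM minus KC in 12 and Sparc in TP minus KT in 10. Between liver fractions, Fn1 in IC minus EC and Bgn in KC minus EC held in 17. Sparc in TP minus KT turned to -0.176 with its brighter probe. Postn in KT minus KC turned to -0.409 without replicate 3, -0.499 without KC replicate 3 (range -0.499 to 1.018 over samples left out) and -1.276 without the 6 samples. Fn1 in the Kupffer minus Ito change turned to -0.132, -0.449 (range -0.449 to 1.009) and -1.446 under the same settings. In what follows, counts of called probes out of 55681 stand in brackets. At an adjusted p under 0.001 and 4-fold, 0 genes were called in IC minus EC, IT minus ET, KC minus EC and KC minus IC (693, 485, 1463 and 516 probes). With only the compared groups, ET minus EC gave 1 call and KC minus IC 1 (2947 and 5786). The methods' t-test gave 1 in ET minus EC, 0 in IT minus ET and 1 in KC minus IC (2231, 2304 and 4568). The filter on dim probes gave 4 in IT minus ET (4952, here of 28997). Without KC replicate 3, ET minus EC gave 1 and IT minus ET 5 (764 and 5221). Without the Ito and Kupffer samples numbered 4, ET minus EC gave 1, IC minus EC 4 and KC minus IC 1 (914, 6530 and 7826). Without all 6 samples, ET minus EC, IT minus IC and KT minus KC gave 1 each (2016, 6867 and 2706) and IT minus ET 5 (8963). Over all samples, 636, 161, 243 and 4597 probes were called in these. The Kupffer minus endothelial and Kupffer minus Ito changes also gave 1 each without the 6 samples (654 and 489). Leaving out a replicate number, or the samples that stood apart one set at a time, gave 0 to 1 calls in ET minus EC, 3 to 7 in IC minus EC, 1 to 5 in IT minus ET, 0 to 3 in KC minus IC and 0 to 2 in TP minus TM. In the same order, 182 to 917, 2604 to 6794, 1732 to 6491, 4270 to 9959 and 529 to 2473 probes were called. These differences of count were not tested for their cause, and 4 samples a group limit all of them.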
